A study of Homo sapiens with 22 samples.

Results

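The genes for the DNA methyltransferases and the TET enzymes, DNMT1, DNMT3A, DNMT3B, DNMT3L, TET1, TET2 and TET3, were taken by symbol from the 33694 genes counted, which makes 7 genes in all. They were followed in BJ cells, an established line of human foreskin fibroblasts, while these were reprogrammed to pluripotency in microfluidic chips. Control fibroblasts were captured before any transfection, on day 0 (D0), and transfected cells on days 3, 5, 7, 9, 11, 13 and 15 (D3 to D15). Non-modified mRNAs for POU5F1, SOX2, KLF4, MYC, LIN28 and NANOG were transfected 8 times, and the medium was switched from day 9, so that the end of transfection and the change of medium cannot be told apart. Each day had 2 pools, A and B, of cells from 4 independent chips. For comparisons between days, p-values measure the spread between these pools. For comparisons of cells within a pool, given further below, they measure how far the difference varies from pool to pool. No untransfected cells were captured after D0, so time in the chip and transfection cannot be told apart either.

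DNA methyltransferases attach a methyl group to cytosine, mostly where a C is followed by a G (CpG). DNMT1 copies the pattern onto the new strand after replication, DNMT3A and DNMT3B set methylation on sites that carry none, and DNMT3L, which has no catalytic activity of its own, binds and stimulates them. The TET enzymes oxidize the methylated base, which opens the way to its replacement by plain cytosine. Pluripotent cells are known for high DNMT3B and TET1, and DNMT3L is known from germ cells and the early embryo.

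Start regions of DNMT3B, TET1 and TET2 are shown with each CpG in capitals, because CpG is the substrate of these enzymes, and because DNMT3B and TET1 rose over the course while TET2 fell. RefSeq (GRCh38.p14) gave windows of 300 bases, 250 before and 50 from a start site on, for 6 of the 7 members, DNMT3L being without one. The DNMT3B window belongs to a start 17467 bases inside the gene (chr20:32779602-32779901, plus strand) and held 3 CpG, against a median of 14 over 35116 windows. The TET1 windows at the start of the gene (chr10:68560087-68560386, plus strand) and at a start 39931 bases downstream (chr10:68600018-68600317, plus strand) held 10 and 6 CpG. A further TET1 window, which overlaps the downstream one (chr10:68600224-68600523, plus strand), held 11 CpG and is not printed. The TET2 windows at the start of the gene (chr4:105145625-105145924, plus strand) and at a start further downstream (chr4:105146626-105146925, plus strand) held 13 and 35 CpG.
DNMT3B, internal start: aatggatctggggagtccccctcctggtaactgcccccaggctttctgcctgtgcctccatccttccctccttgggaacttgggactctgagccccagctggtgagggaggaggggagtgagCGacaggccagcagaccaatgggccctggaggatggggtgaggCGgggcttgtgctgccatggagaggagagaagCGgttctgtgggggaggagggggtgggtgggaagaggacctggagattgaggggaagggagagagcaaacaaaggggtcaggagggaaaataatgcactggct
TET1, upstream start: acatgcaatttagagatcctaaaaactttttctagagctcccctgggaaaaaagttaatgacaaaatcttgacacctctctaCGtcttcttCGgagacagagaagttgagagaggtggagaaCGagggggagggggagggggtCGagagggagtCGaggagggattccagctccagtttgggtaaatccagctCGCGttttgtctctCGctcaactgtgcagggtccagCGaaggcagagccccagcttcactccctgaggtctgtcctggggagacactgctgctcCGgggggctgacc
TET1, downstream start: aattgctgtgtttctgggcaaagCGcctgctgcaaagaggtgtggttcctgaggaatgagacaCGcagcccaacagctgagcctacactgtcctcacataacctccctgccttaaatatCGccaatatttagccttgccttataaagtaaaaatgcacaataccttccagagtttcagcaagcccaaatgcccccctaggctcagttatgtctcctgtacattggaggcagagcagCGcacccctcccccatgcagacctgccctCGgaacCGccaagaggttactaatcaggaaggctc
TET2, upstream start: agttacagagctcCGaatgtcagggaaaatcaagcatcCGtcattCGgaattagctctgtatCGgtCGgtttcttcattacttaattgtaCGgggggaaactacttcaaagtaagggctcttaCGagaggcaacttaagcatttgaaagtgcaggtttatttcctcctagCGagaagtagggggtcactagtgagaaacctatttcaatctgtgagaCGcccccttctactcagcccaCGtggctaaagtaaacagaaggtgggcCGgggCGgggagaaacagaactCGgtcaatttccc
TET2, downstream start: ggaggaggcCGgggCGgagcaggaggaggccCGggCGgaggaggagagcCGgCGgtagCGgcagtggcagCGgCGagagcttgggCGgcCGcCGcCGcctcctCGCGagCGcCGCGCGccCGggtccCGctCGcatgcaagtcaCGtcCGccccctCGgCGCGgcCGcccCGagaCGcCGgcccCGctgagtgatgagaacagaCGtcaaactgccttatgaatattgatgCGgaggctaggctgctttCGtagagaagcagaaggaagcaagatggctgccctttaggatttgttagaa
The octamer ATGCAAAT, a sequence known to bind POU5F1, was searched on both strands and was in none of the 15 windows of the members, while 1.77% of all windows held it. At so low a share, none among 15 windows, some of which overlap, is no result about the members. The E-box CACGTG was in 7.26% of all windows and, among the members, in windows of DNMT3A, TET2 (the upstream one) and TET3. The GC box GGGCGG, which overlaps a CpG, was in 45.0% of all windows and, of the windows printed, in both of TET2. Counts came from the 3′ ends of transcripts, so the start and the isoform behind a count of DNMT3B or TET1 are not known.

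In GRCh38 (GENCODE 44), DNMT1 lies on chromosome 19 from 10133342 to 10231286 (minus strand) and DNMT3A on chromosome 2 from 25227855 to 25342590 (minus strand). DNMT3B lies on chromosome 20 from 32762385 to 32809359 (plus strand) and DNMT3L on chromosome 21 from 44246339 to 44262216 (minus strand). TET1 lies on chromosome 10 from 68560337 to 68694487, TET2 on chromosome 4 from 105145875 to 105279816 and TET3 on chromosome 2 from 73984910 to 74108176, all on the plus strand. S1PR2 overlaps DNMT1 and ENSG00000235499 overlaps TET3 on the same strand, and the antisense genes TET2-AS1 and DNMT3L-AS1 overlap their namesakes, so reads of these pairs may not be separated.

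Libraries held 9174907 to 180056814 unique molecular identifiers (UMIs, each a captured RNA molecule), and the pools 33181614 to 180056814, in 41975 cells. Levels are given as CPM, the UMIs of a gene scaled to 1000000 UMIs of its pool. Any pair of libraries shared at most 39 cell barcodes (0.816% of the smaller library), and the largest share of a smaller library was 2.1%, in another pair with 4 shared barcodes. POU5F1 had a mean of 0.141 CPM on D0 and 1150 CPM on D15, and 8 pluripotency markers summed to 2.63 and 2.48 CPM on D0 and to 1972 and 1762 CPM on D15, while 8 somatic markers went from 20580 and 21050 to 1464 and 1720 CPM. RNA of the transfected POU5F1 and of the cell's own gene cannot be told apart in these counts. On D3 and D5, within the days of transfection, POU5F1 was at 0.671 and 1.40 CPM and at 3.48 and 5.95 CPM. In 6 pools 2 aliquots had been captured as separate libraries, and these stood apart for the members: in pool A of D9 the aliquots held 66.9 and 30.1 CPM of DNMT3A, 45.4 and 25.8 of DNMT3B, and 96.9 and 55.7 of TET1. Between aliquots the largest difference of a tested member was 2.69-fold, for DNMT3B in pool A of D5, where 92 and 9 UMIs were counted, and results between days are therefore also given with the larger or the smaller library alone where a call was lost.

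From D0 to D15, DNMT3B, DNMT3A, TET1, DNMT1 and TET3 rose and TET2 fell. All 6 members that were found in at least 5% of cells, and were therefore tested, passed the threshold used throughout (an adjusted p below 0.01 and a log2 change beyond 0.25 in edgeR's quasi-likelihood test with Benjamini-Hochberg adjustment over all genes tested), where 53.4% of all 12794 genes did. DNMT3L, with a UMI in 1.63% of cells, was left out by this filter and is described on its own. The median log2 change of the 6 members was 1.88, and that of all genes tested was 0.01.

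**Figure D1:**
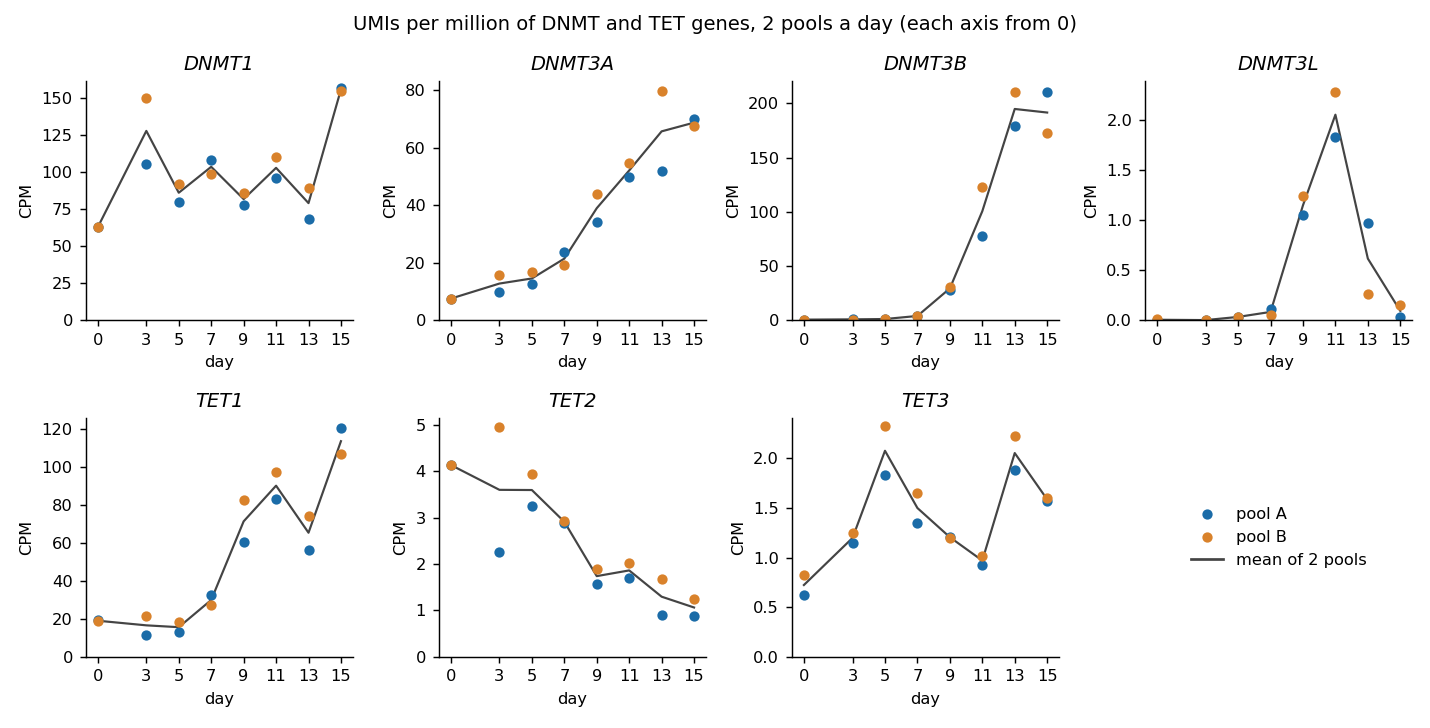
CPM (y axis, each from 0) of the 7 genes by day (x axis), with a point for each pool (A blue, B orange) and a line through the mean of the 2 pools. DNMT3B climbs from 0.43 CPM on D0 to 195 on D13, DNMT3L peaks at 2.06 on D11, and TET2 ends at 1.06, its lowest mean.

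DNMT1, the maintenance enzyme, had the smallest ratio of its highest to its lowest daily mean among the members tested, 2.49. Pools A and B held 62.4 and 62.4 CPM on D0, 105 and 150 on D3, 79.7 and 91.9 on D5, 108 and 98.6 on D7, 77.6 and 85.5 on D9, 95.6 and 110 on D11, 68.4 and 89.2 on D13, and 156 and 154 on D15. Its level was lowest on D0 and highest on D15, and between these days 4 of the 7 neighbouring pairs in the order of levels overlapped. DNMT1 rose from D0 to D15 by 1.25 on the log2 scale (SE 0.23, adjusted p = 0.00036) and from D0 to D3 by 1.01 (SE 0.23, adjusted p = 0.0038). It was the only 1 of 6 tested members called between D0 and D3, where 25.6% of all genes were called. That early call was lost without pool A of D0 (1.03), pool B of D0 (0.99) or pool B of D3 (0.66), and with the larger or the smaller library of each pool alone (1.01 in each case). It was lost as well in the fit of the pools of D0 and D3 alone. No change of DNMT1 was called from the early transfected days (the mean of D3, D5 and D7) to the late days (the mean of D9, D11, D13 and D15), with a log2 change of -0.09 (SE 0.12, adjusted p = 0.57), which was 0.03 without pool B of D3. The difference from D13 to D15 (0.99, SE 0.23) had an adjusted p of 0.035. The 43 S phase genes summed to 664 and 669 CPM on D0 and to 1817 and 1705 CPM on D3, and their part in the level of DNMT1 was not tested between days.

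DNMT3A, a de novo methyltransferase, rose over the whole course with no single interval that stood out. The pools held 7.43 and 7.501 CPM on D0, 9.61 and 15.8 on D3, 12.4 and 16.6 on D5, 23.5 and 19.2 on D7, 34.1 and 43.8 on D9, 49.6 and 54.5 on D11, 51.8 and 79.6 on D13, and 70.0 and 67.4 on D15. Its levels followed the order of the days, with D3 overlapping D5 and with D11, D13 and D15 overlapping in turn, and no other neighbours in that order overlapped. The log2 change from D0 to D15 was 3.14 (SE 0.33, adjusted p = 3.2e-06), and that from the early to the late days was 1.76 (SE 0.17, adjusted p = 1.9e-06). In no interval between neighbouring days was DNMT3A called.

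DNMT3B, the other de novo enzyme, showed the largest fitted change of the 6 tested members. It was at 0.426 and 0.435 CPM on D0 (71 and 64 UMIs), 0.831 and 0.523 on D3, 1.18 and 0.794 on D5, 3.70 and 3.93 on D7, 28.0 and 30.5 on D9, 78.0 and 123 on D11, 180 and 210 on D13, and 210 and 173 on D15. The pools of D7, D9 and D11 each lay above those of every earlier day, and those of D13 and D15 overlapped. DNMT3B rose from D5 to D7 (log2 1.92, SE 0.26, adjusted p = 0.0010), from D7 to D9 (2.90, SE 0.25, adjusted p = 2.2e-05) and from D9 to D11 (1.75, SE 0.24, adjusted p = 0.00079). It was the only tested member called in each of these intervals, in which 2.06%, 7.37% and 4.09% of all genes were called. From D0 to D15 the log2 change was 8.73 (SE 0.33, adjusted p = 1.6e-09). The call from D5 to D7 was lost without pool A of D5 (2.195) or pool B of D5 (1.75), and that from D9 to D11 without pool A of D9 (1.71) or pool B of D9 (1.80) and with the smaller library of each pool alone (1.44).

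In the remaining intervals 0 of the 6 tested members were called by edgeR, where 3.56% (D3 to D5), 0.117% (D11 to D13) and 0.0860% (D13 to D15) of all genes were. At an unadjusted p below 0.05 there were 2 members in each of these intervals, beside 19.7%, 16.2% and 23.2% of all genes. DESeq2 called 0, 2 and 1 of the members and 6.95%, 3.70% and 5.11% of all genes. DNMT3B was 2.05-fold higher on D13 than on D11 (adjusted p = 0.039), short of the threshold. From the early to the late days 4 of the 6 tested members were called, DNMT3A, DNMT3B and TET1 up and TET2 down, where 43.5% of all genes were, and DNMT3B rose by 6.19 on the log2 scale (SE 0.17, adjusted p = 5.0e-11).

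Days differed in depth, so shares of cells were taken after each cell had been thinned to 5000 UMIs. DNMT3B was then detected in 0.208% ± 0.041 (SD, n = 2) of the D0 fibroblasts, which serve as background. Its share had reached 1.44% ± 0.0066 by D7, 10.1% ± 1.46 by D9, 28.4% ± 3.57 by D11, 49.5% ± 8.24 by D13 and 53.8% ± 1.98 by D15. Without thinning the share was 1.24% ± 0.17 on D0 and 90.8% ± 3.58 on D15. The SD is the spread between the 2 pools, while the upper limit on a share given below for DNMT3L covers counting error only.

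DNMT3L, the catalytically inactive partner, was detected for a short time in the middle of the course. The UMIs counted in pools A and B were 0 and 1 on D0, 0 and 0 on D3, 3 and 1 on D5, 16 and 7 on D7, 122 and 140 on D9, 330 and 356 on D11, 75 and 40 on D13, and 1 and 10 on D15. As CPM this was 1.06 and 1.24 on D9, 1.83 and 2.28 on D11, 0.972 and 0.259 on D13, and 0.0301 and 0.154 on D15. Both pools of D9 and of D11 lay above all pools of the other days. On the 5000-UMI scale, none of the 10776 cells of D0 held a UMI of DNMT3L, which allows a share of up to 0.0278%, against 0.926% ± 0.20 of cells on D11.

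Tested over the 29281 genes with any UMI, in a fit without the filter, DNMT3L rose from D7 to D9 (log2 3.77, SE 0.54, adjusted p = 1.1e-05), where 6.50% of those genes were called. It also rose from the early to the late days (5.35, SE 0.50, adjusted p = 2.5e-10), where 35.5% were. From D0 to D15 it passed as well (4.40, SE 1.10, adjusted p = 0.0013), where 53.4% of genes were called in the fit with the filter. With 0 and 1 UMIs on D0 and 1 and 10 on D15, the size of that rise depends on the prior count. The steps down from D11 to D13 (-1.79, SE 0.46, adjusted p = 0.028) and from D13 to D15 (-2.57, SE 0.61, adjusted p = 0.012) did not pass. Every pool of D9 and D11 held more DNMT3L than every pool of D13 and D15. Of 82 POU5F1-positive cells with a UMI of DNMT3L in pool B of D9, 91.5% also held one of DNMT3B, as did 63.6% of all 913 POU5F1-positive cells of that pool. On D11, 92.6% of 203 cells in pool A and 97.9% of 193 cells in pool B did, against 80.9% and 82.4% of all POU5F1-positive cells of those pools. These cells were not matched for depth.

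TET1 followed DNMT3A and DNMT3B upward, after a start at a level already measurable in fibroblasts. Its pools held 19.3 and 18.7 CPM on D0, 11.6 and 21.5 on D3, 12.9 and 18.2 on D5, 32.7 and 27.0 on D7, 60.2 and 82.3 on D9, 83.1 and 96.9 on D11, 56.3 and 74.2 on D13, and 120 and 106.5 on D15. D3 overlapped D5 and D0, while D5 lay just below D0. All pools from D7 on lay above these days, and D15 lay above every other day. TET1 rose by 2.51 on the log2 scale from D0 to D15 (SE 0.33, adjusted p = 2.3e-05) and by 2.03 from the early to the late days (SE 0.18, adjusted p = 7.2e-07). Its difference from D7 to D9 (1.21, SE 0.31, adjusted p = 0.021) did not pass in the fit over all pools and passed in the fit of the 4 pools of these days alone (1.23), in that without the gene filter (1.23) and in DESeq2 (1.23).

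TET2, the member that fell, went the opposite way. Its pools held 4.13 and 4.13 CPM on D0, 2.25 and 4.95 on D3, 3.25 and 3.94 on D5, 2.89 and 2.93 on D7, 1.57 and 1.90 on D9, 1.70 and 2.02 on D11, 0.907 and 1.68 on D13, and 0.874 and 1.25 on D15. Every pool from D9 on lay below every pool of D0 to D7. The fall from D0 to D15 was 4.00-fold (log2 -2.00, SE 0.42, adjusted p = 0.0010) and that from the early to the late days was 2.35-fold (-1.23, SE 0.21, adjusted p = 0.00029). The fall from D0 to D15 lost its call without pool A of D15 (-1.78), which held 29 UMIs of TET2, and under a stricter cell filter, of 2000 genes or more and a mitochondrial share no higher than 5% (-1.23).

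TET3 stayed low, with 52 to 344 UMIs a pool. It was at 0.624 and 0.822 CPM on D0, 1.15 and 1.25 on D3, 1.83 and 2.32 on D5, 1.35 and 1.65 on D7, 1.21 and 1.199 on D9, 0.922 and 1.02 on D11, 1.88 and 2.23 on D13, and 1.57 and 1.60 on D15. The levels of D5 and D13 overlapped at the top of the order and D0 lay below all other pools, with D11 next. TET3 rose from D0 to D15 (log2 1.07, SE 0.25, adjusted p = 0.0019), a call lost without pool A of D0 (0.93) or pool B of D15 (1.05), without the gene filter (0.85), with 2500 cells a day (0.86) and under the stricter cell filter (1.05). Its difference from D11 to D13 (1.16, SE 0.23) had an adjusted p of 0.027, and no change was called from the early to the late days (-0.18, SE 0.13, adjusted p = 0.25).

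Cells of the same pool were then compared by their POU5F1 RNA. A cell was called POU5F1-positive with at least 1 POU5F1 UMI after thinning to 5000 UMIs, which 4 cells, or 0.0371%, of D0 were, and UMIs were summed per class within each pool of D7 to D15. The other class is called POU5F1-negative and holds cells low in POU5F1 rather than without it. At full depth 24.5% to 79.9% of its cells held no POU5F1 UMI on D7 and D9, as did 347 of 1136 in pool B of D11 and 115 of 431 in pool A of D13. In the other pools it was 2 of 491 in pool A of D11, 17 of 471 in pool B of D13, and 4 of 52 and 15 of 176 on D15, and its sums reached 267.5 CPM of POU5F1, in pool B of D13. Positive cells were 11.5% and 5.15% of pools A and B on D7, 43.0% and 55.2% on D9, 83.2% and 65.4% on D11, 68.7% and 88.4% on D13, and 90.9% and 91.7% on D15. In all 10 pools positive cells were the deeper class, with 1.095 to 1.52 times the median UMIs. The 8 somatic markers summed to 957 to 5325 CPM in positive and 5774 to 13890 CPM in negative sums, and the S phase list in positive cells was 1.096 to 2.67 times that in negative cells, in 10 of 10 pools. The 6 mesendoderm markers summed to 2.68 and 6.46 CPM in negative and 20.3 and 19.2 CPM in positive cells of D9, and to 375 and 538 CPM against 62.6 and 94.0 CPM on D15. The sum of the 6 trophoblast markers was lower in positive cells in 9 of 10 pools (14.4 to 71.3 CPM, against 68.2 to 246 CPM in negative cells). The same sum was 114 and 121 CPM in the fibroblasts of D0, so it is not particular to trophoblast here. Only 3 of the 6 markers passed the gene filter. The part of these lists in the differences below was not tested. A comparison within cells without an MKI67 UMI in 5000 is given below, but such cells can still be dividing.

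In the mean over the 5 days, DNMT3B, TET1, DNMT3A and DNMT1 were higher and TET2 and TET3 lower in POU5F1-positive cells. All 6 tested members were called, where 59.6% of all genes were, and each of the 6 had the same direction in 10 of 10 pools. Within the 13 libraries with at least 50 cells of each class, DNMT3A, DNMT3B, DNMT3L and TET1 were higher and TET2 lower in 13 of 13, while DNMT1 was higher in 12 and TET3 lower in 11. For DNMT3L, which is not among these 6, positive cells had the higher value in 10 of 10 pools as well, but in pool B of D13 and both pools of D15 the negative sum held 0 UMIs. In pool A of D15 it was 1 UMI in 519 positive against 0 in 52 negative cells, which gives no direction.

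**Figure D2:**
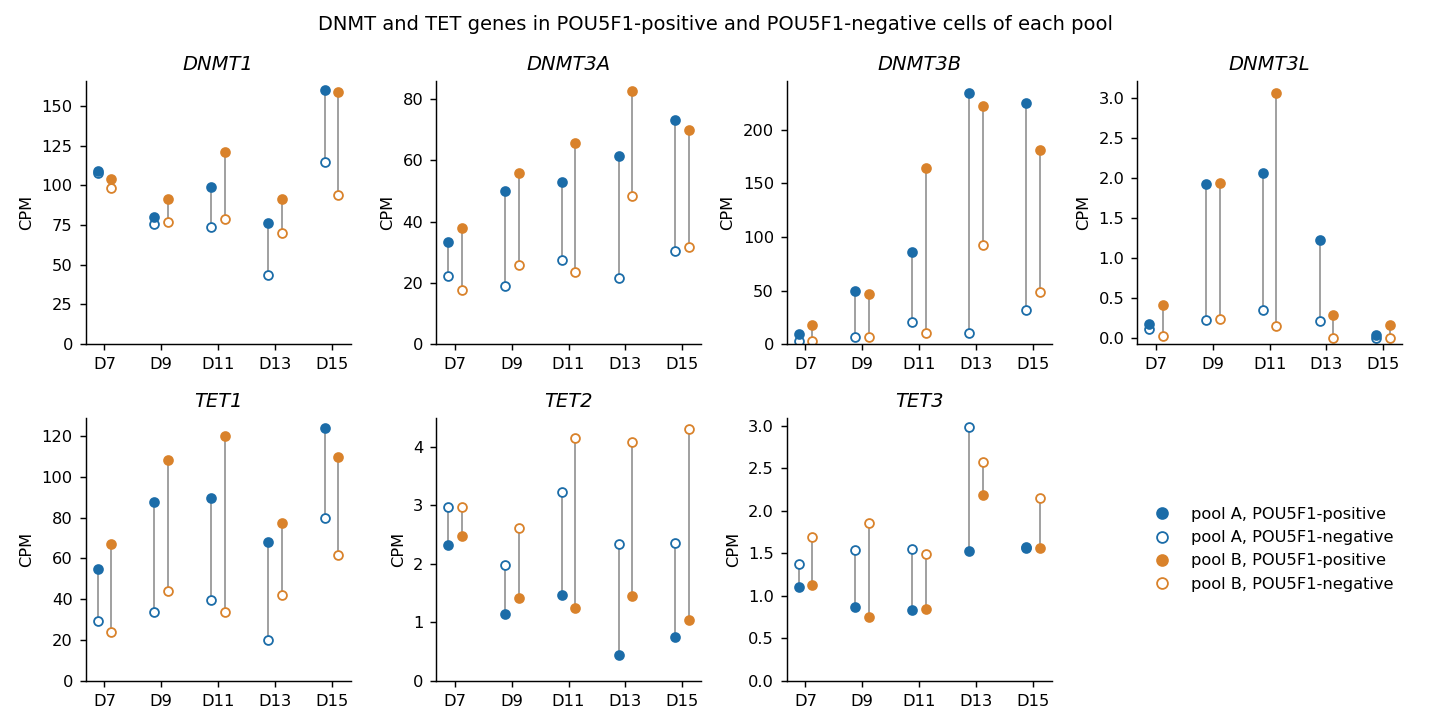
CPM (y axis) in POU5F1-positive (filled) and POU5F1-negative (open) cells of each pool (A blue, B orange), joined by a line, for D7 to D15. Filled points lie above open ones in all 10 pools for DNMT1, DNMT3A, DNMT3B and TET1, as well as for DNMT3L, whose open points are at 0 UMIs in 3 pools, and below them in all 10 for TET2 and TET3, with 1.574 and 1.567 CPM as the closest pair, for TET3 in pool A of D15.

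DNMT3B had the widest difference between classes of the 6 tested members. Negative cells of pools A and B held 2.84 and 2.83 CPM on D7, 6.82 and 7.16 on D9, 21.1 and 10.2 on D11, 10.4 and 92.7 on D13, and 32.3 and 48.7 on D15. Positive cells held 9.65 and 18.3 CPM on D7, 49.9 and 46.5 on D9, 86.4 and 164 on D11, 234 and 222 on D13, and 225 and 182 on D15. Within a pool positive cells held 2.40 to 22.4 times as much, with both extremes on D13, and the mean log2 difference was 2.68 (SE 0.34, adjusted p = 0.00022).

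DNMT3A differed by 1.18 (log2, SE 0.09, adjusted p = 8.1e-05), with negative sums from 17.8 to 48.3 CPM and positive sums from 33.2 to 82.7 CPM. On D9 its negative cells held 18.9 and 26.0 CPM and its positive cells 49.9 and 55.9. TET1 differed by 1.26 (SE 0.11, adjusted p = 8.3e-05), with 34.0 and 44.2 CPM in negative and 87.5 and 108 CPM in positive cells of D9. DNMT1 differed least of the rising members, by 0.44 (SE 0.06, adjusted p = 0.00020), and its classes nearly met on D7, with 108 and 98.2 CPM in negative against 109 and 104 CPM in positive cells. With classes set by the unthinned cell, or with negative cells without any POU5F1 UMI, DNMT1 was not called. Those rules could be run on D7 and D9 only.

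TET2 was lower in positive cells by 1.22 on the log2 scale (-1.22, SE 0.12, adjusted p = 0.00010). Negative cells held 2.97 and 2.97 CPM on D7, 1.98 and 2.61 on D9, 3.23 and 4.15 on D11, 2.35 and 4.08 on D13, and 2.36 and 4.30 on D15, a range that reaches the level of D0. Positive cells held 2.33 and 2.47 CPM on D7, 1.15 and 1.42 on D9, 1.47 and 1.25 on D11, 0.445 and 1.44 on D13, and 0.751 and 1.04 on D15. TET3 was lower by -0.60 (SE 0.12, adjusted p = 0.0025), a call lost without pool B of D9 (-0.53) or pool B of D15 (-0.55) and with sums of thinned counts (-0.39), and, with no change in size, with libraries as units (-0.60). TET2 lost its call in sums of thinned counts too (-1.29). In pool A of D15, where 52 negative cells held 4 UMIs of TET3, its classes were at 1.574 and 1.567 CPM.

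Within single days the same directions were seen with fewer calls. Of the 6 tested members edgeR called 0 on D7, where 0% of all genes were called, and 0 on D9, where 0.102% were. At an unadjusted p below 0.05 there were 3 and 5 members on these days, beside 18.9% and 42.7% of all genes. DESeq2 called 2 and 3 members, and 3.00% and 16.8% of all genes. On D11 DNMT3A, TET1 and TET2 were called (35.7% of all genes), on D13 DNMT1, DNMT3A, TET1 and TET2 (35.9%), and on D15 DNMT1, DNMT3A and TET2 (29.0%). These 3 counts fell to 0 with a pool left out: on D11 without either pool of D9 or D15 or without pool B of D11, on D13 without pool A, and on D15 without either of its own pools. In these fits 0% of all genes were called on D11 and D13, and 0.0156% and 1.39% on D15 without its pools A and B. Without either pool of D13 the counts were 4 on D9, 6 on D11 and 5 on D15, where the shares of all genes called were also higher, at 12.9% and 13.7% on D9, 49.7% and 49.6% on D11, and 35.8% and 35.4% on D15 without pools A and B of D13. Without pool B of D13, whose negative cells stood apart for DNMT3B, the difference of DNMT3B on D13 was 4.58 in place of 2.88. Between D9 and D15 the change of the class difference was called for 0 of the 6 members by edgeR, where 2.01% of all genes were called, and for 0 by DESeq2, which called 7.68%. The closest, and the 1 member with an unadjusted p below 0.05, as 30.1% of all genes had, was DNMT1 (0.57, SE 0.18, adjusted p = 0.078).

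For DNMT3L the negative class of all 10 pools held 58 UMIs and the positive class 1039. On D9 negative cells were at 0.221 and 0.241 CPM and positive cells at 1.92 and 1.93, and on D11 at 0.344 and 0.144 against 2.05 and 3.06. In the fit without the filter the log2 difference was 3.09 on D9 (SE 0.52, adjusted p = 0.0039) and 3.55 on D11 (SE 0.57, adjusted p = 0.00096), where 4.83% and 19.4% of genes were called. It did not pass on D7 (1.88, SE 0.90, adjusted p = 0.38), D13 (2.925, SE 0.82, adjusted p = 0.017) or D15 (5.75, SE 5.07, adjusted p = 0.58). From D9 to D15 DNMT3L fell in POU5F1-positive cells, from 109 and 129 UMIs to 1 and 10 (log2 -4.11, SE 0.70, adjusted p = 5.1e-05), where 12.4% of genes were called.

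Between D9 and D15, edgeR called 1 of the 6 tested members in POU5F1-positive cells, DNMT1, where 14.7% of genes were called. DESeq2 called 3, beside 24.4% of genes, among them DNMT3B (log2 2.11) and TET3 (1.00). DNMT1 was at 79.7 and 91.5 CPM on D9 and at 160 and 159 CPM on D15 (log2 0.94, SE 0.22, adjusted p = 0.0058), and the call was lost without any 1 of these 4 pools (0.86 to 1.02) and without the gene filter (0.83). In the same cells and by edgeR, DNMT3B was 4.33-fold higher on D15 (adjusted p = 0.027) and TET3 2.00-fold higher (adjusted p = 0.011), short of the threshold, and DNMT3A (0.48, SE 0.30) and TET1 (0.29, SE 0.29) had adjusted p-values of 0.24 and 0.46. In POU5F1-negative cells, in which the mesendoderm markers were higher on D15 as given above, edgeR called 0 of the 6 members, where 9.63% of genes were, and DESeq2 called 1, beside 16.7% of genes. At an unadjusted p below 0.05 there were 2, beside 39.2% of genes, of which DNMT3B was closest to the threshold (2.47, SE 0.70, adjusted p = 0.022).

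Cells were also split by the number of POU5F1 UMIs in 5000, first on D9 and D11. In pool B of D11 DNMT3B was at 10.2 CPM in cells without a POU5F1 UMI, 22.8 with 1 UMI, 94.3 with 2 to 3, 176 with 4 to 7 and 214.5 with 8 or more. TET2 was at 4.15, 2.81, 1.96, 0.886 and 0.917 CPM in the same cells. From no UMI to 4 to 7 UMIs, DNMT3A, DNMT3B and TET1 were higher at each step in all 4 pools and TET2 was lower at each step in all 4. DNMT1 was higher at each step in 2 of the 4 pools, DNMT3L in 2, and TET3 was lower at each step in 3. With 8 or more UMIs DNMT3B was higher than in the bin of 4 to 7 in all 4 pools of D9 and D11, and DNMT1, DNMT3A and TET1 in 3. In pool B of D9 TET1 was at 118 against 135 CPM there, DNMT3A at 64.4 against 70.5 and DNMT1 at 80.6 against 95.5. TET3 was higher there in 3 of the 4 pools, and TET2 and DNMT3L in 2. The bins of TET3 with 4 or more POU5F1 UMIs held 5 to 36 UMIs of TET3 each. On D13 and D15, where bins under 50 cells were left out, the steps up to 4 to 7 UMIs had exceptions. In pool B of D13 TET3 was at 2.58, 1.96, 2.17 and 2.19 CPM from no UMI to 4 to 7. In pool A of D15 DNMT3A went from 85.1 CPM with 2 to 3 UMIs to 71.2 with 4 to 7, and TET1 from 130.9 to 123.1, with 59 cells in the lower bin. DNMT3B was higher at each of these steps, at 92.7, 143, 213 and 248 CPM in pool B of D13. With 8 or more UMIs it was at 231 against 236 CPM with 4 to 7 in pool A of D15 and at 190.3 against 197 CPM in pool B, below the previous bin in both, and above it in both pools of D13.

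**Figure D3:**
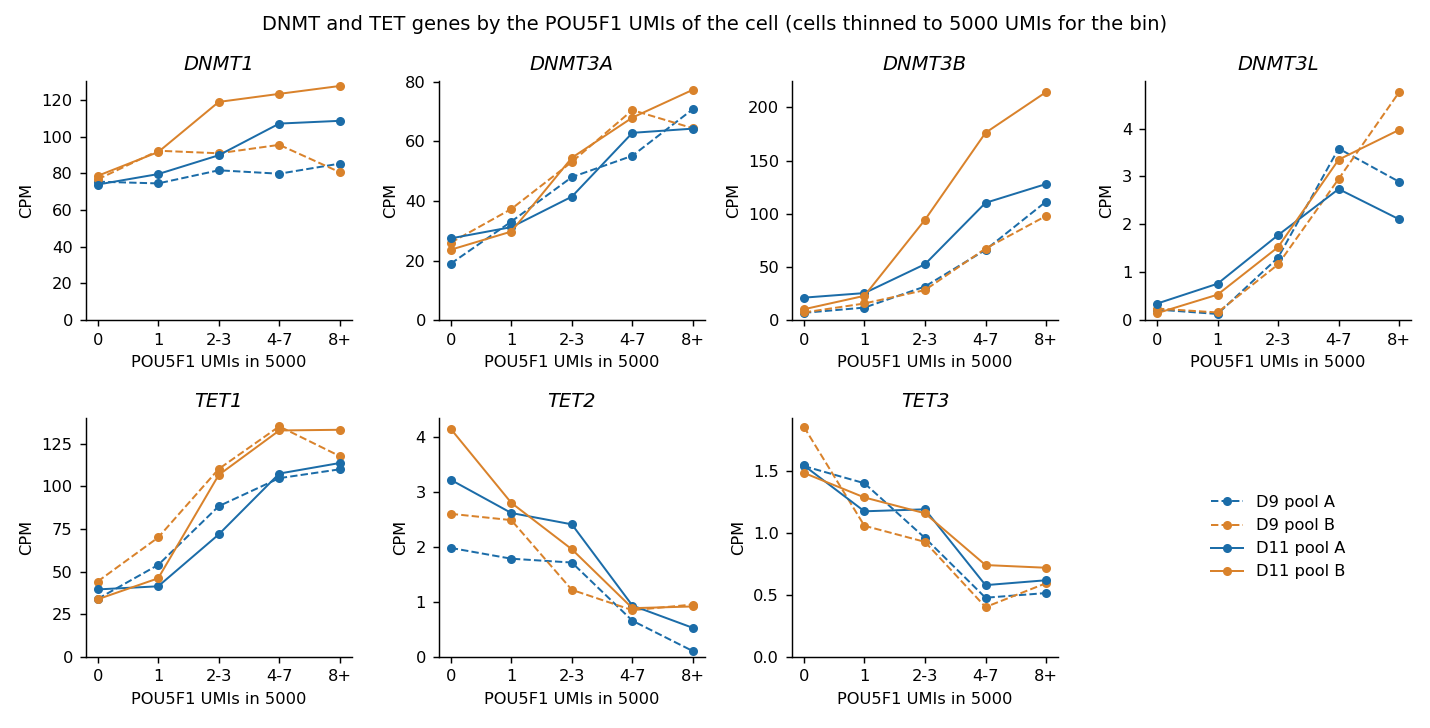
CPM of each gene (y axis, from 0) against the POU5F1 UMIs of the cell after thinning to 5000 UMIs (x axis), for pools A (blue) and B (orange) of D9 (dashed) and D11 (solid). Lines of DNMT3A, DNMT3B and TET1 climb up to the bin of 4 to 7 UMIs in all 4 pools, and those of TET2 descend up to the same bin.

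Cells were split in the same way by MKI67, a gene of dividing cells, in all 16 pools. DNMT1 was higher in MKI67-positive cells in 16 of 16 pools (mean log2 difference 0.48, SE 0.03, adjusted p = 4.6e-10) and DNMT3B in 15 of 16 (0.39, SE 0.07, adjusted p = 0.00013). These were the 2 of 6 tested members called, where 24.2% of genes were. The size differed between days, which was not tested. Positive cells of pools A and B held 2.80 and 2.735 times as much DNMT1 on D0, 1.93 and 1.88 times on D5, and 1.05 and 1.035 times on D15. For DNMT3B this was 2.84 and 2.66 times on D0, with 25 and 22 UMIs in positive cells, and 1.22 and 1.11 times on D15. The classes themselves drew closer: positive cells held 17.2 and 16.6 times as much MKI67 on D0, 5.71 and 5.79 times on D5, and 2.11 and 2.27 times on D15. Negative sums of D15 still held 64.65 and 55.41 CPM of MKI67, so ratios of different days are not on the same footing. TET1 (0.05, SE 0.02), DNMT3A (-0.01, SE 0.03), TET2 (-0.06, SE 0.06) and TET3 (-0.07, SE 0.07) did not pass, with adjusted p-values from 0.082 to 0.79. For TET1 and DNMT3A this mean joins opposite directions. Positive cells held 0.779 to 0.974 times as much TET1 on D3 and D5, 1.04 and 1.06 times on D0, and 1.02 to 1.22 times from D7 on. For DNMT3A this was 0.805 to 0.917 times on D3 and D5 and 1.08 to 1.18 times on D11 to D15, with both directions on D0, D7 and D9. Among cells without MKI67 on D7 to D13, the mean POU5F1 class difference was 2.78 for DNMT3B, 1.37 for TET1, 1.13 for DNMT3A, 0.43 for DNMT1, -1.06 for TET2 and -0.74 for TET3, and all 6 were called there too, beside 54.4% of all genes.

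**Figure D4:**
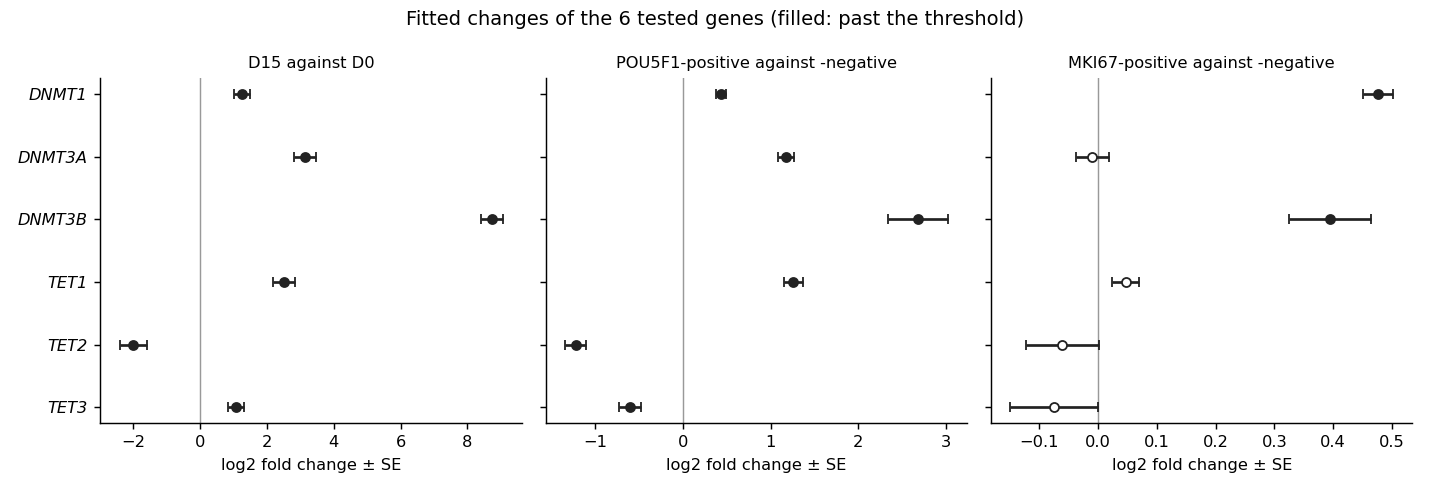
Fitted log2 fold change (x axis) with its standard error for the 6 tested genes, for D15 against D0, POU5F1-positive against -negative cells and MKI67-positive against -negative cells; filled points passed the threshold. All 6 are filled in the first 2 panels, and DNMT1 and DNMT3B in the third, whose axis is narrower.

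Of 33 other genes that act with these enzymes, 32 were tested and 10 rose and 7 fell from D0 to D15, with a median log2 change of 0.05 beside 0.01 for all genes. The 17 called are a share near the 53.4% of all genes called, against which the groups below are to be read. Among 7 genes that act on maintenance methylation, for or against it, 4 rose, DPPA3 among them, and 1 fell. Of these 7, UHRF1, HELLS, CDCA7 and PCNA are also in the S phase list. CDCA7, a cofactor of the remodeller HELLS, rose from 1.69 and 1.92 to 38.6 and 41.1 CPM (log2 4.40, SE 0.28, adjusted p = 4.2e-08). DPPA3, known to hinder maintenance methylation, was at 1 UMI in each pool of D0 and at 3.89 and 3.27 CPM on D15, a rise (adjusted p = 1.6e-08) whose fitted size depends on the prior count. UHRF1, which guides DNMT1 to replicated DNA, was not called (-0.23, SE 0.52, adjusted p = 0.71).

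Among the 4 genes of targeting and protection 3 rose and 1 fell. ZFP57, a zinc finger protein that protects methylation at imprinted genes, rose from 0.378 and 0.367 to 24.1 and 27.3 CPM (log2 6.04, SE 0.36, adjusted p = 2.3e-08). Of 7 genes listed as readers of methylated CpG none rose and 3 fell: ZBTB38 (log2 -3.08, SE 0.40, adjusted p = 2.1e-05), ZBTB4 (-2.54, SE 0.30, adjusted p = 1.0e-05) and MBD2 (-2.35, SE 0.39, adjusted p = 0.00018). Of 6 genes of base excision repair 2 rose and 1 fell, of 4 tested partners or cofactors of the TET enzymes 1 rose (CXXC4, with a UMI in 2.84% of cells, was not tested), and of 4 genes of the methyl donor cycle 1 fell.

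In POU5F1-positive cells 14 of the 32 were higher and 6 lower than in negative cells, again near the share of all genes called (59.6%). DPPA3 (log2 2.50, SE 0.33, adjusted p = 0.00025), HELLS (1.71, SE 0.17, adjusted p = 9.6e-05) and ZFP57 (1.57, SE 0.14, adjusted p = 9.0e-05) were highest by this difference and higher in 10 of 10 pools. ZBTB38 (-1.30, SE 0.13, adjusted p = 0.00010), IDH2, a source of the TET cofactor in mitochondria (-0.79, SE 0.08, adjusted p = 9.6e-05), and ZBTB4 (-0.785, SE 0.12, adjusted p = 0.00044) were lower in 10 of 10 pools. By group 5 genes of maintenance were higher, DPPA3 among them, and 1 lower. Of the readers 4 were lower, and 2 genes of base excision were higher. Of the TET partners or cofactors IDH1 was higher (0.87, SE 0.09, adjusted p = 9.7e-05), in 10 of 10 pools, and IDH2 lower. In the methyl donor cycle and in targeting and protection 3 genes each were higher.

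**Figure D5:**
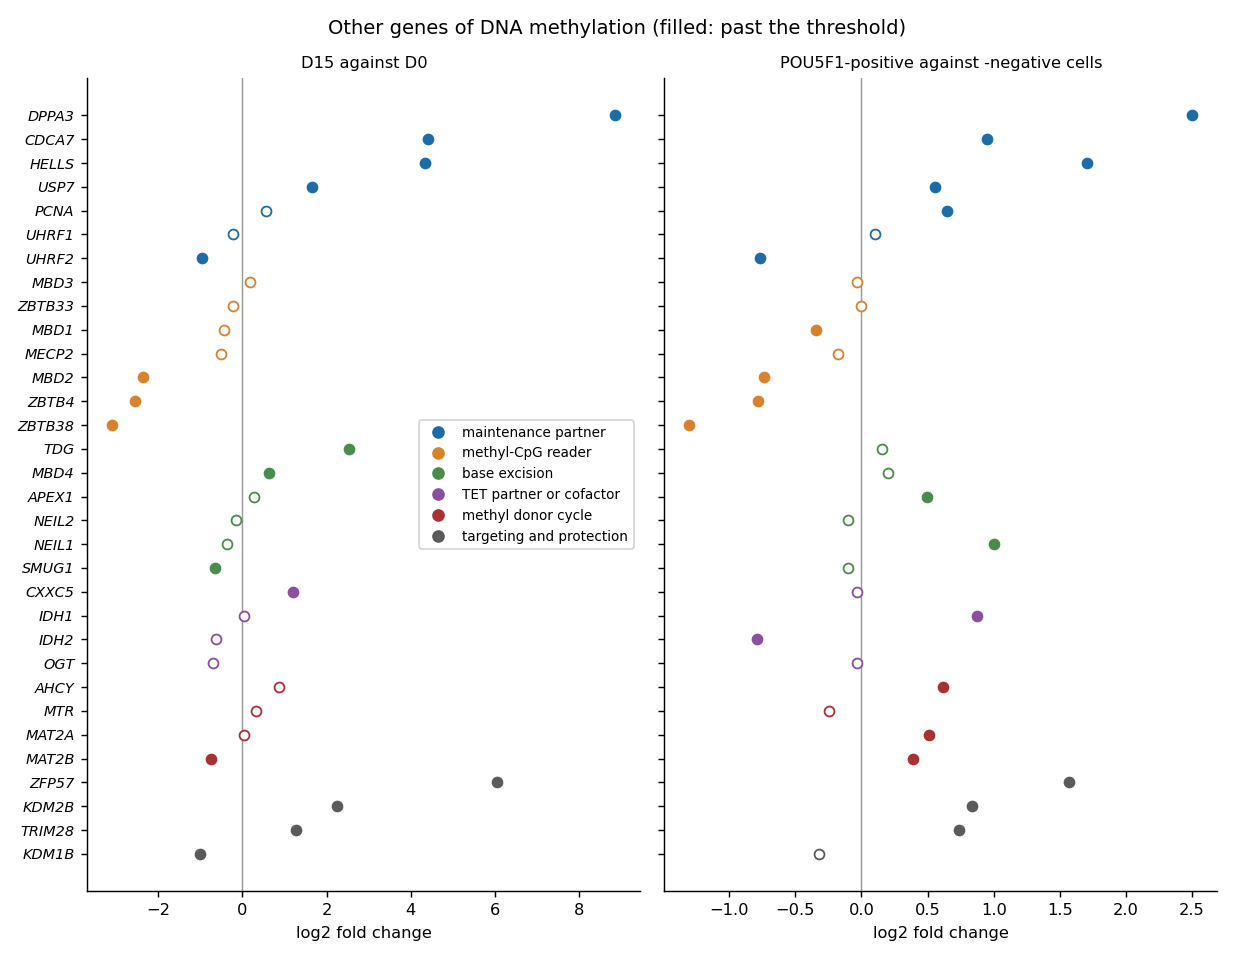
Log2 fold change (x axis) of 32 other genes of DNA methylation, coloured by group, from D0 to D15 (left) and between POU5F1-negative and -positive cells (right); filled points passed the threshold. No reader of methylated CpG is filled to the right of 0 in either panel, and the place of DPPA3 on the left depends on the prior count of the fit.

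The genes whose log2(CPM + 1) over the 16 pools was most like that of a member are given as a description, since pools share days. For DNMT3B these were FOXD3-AS1 (Pearson r = 0.997), DPPA5 (0.996) and GPR160 (0.995), for DNMT3A IGF2BP1 (0.994), ANK3 (0.986) and JADE1 (0.986), and for TET1 USP28 (0.979), ARHGEF35 (0.976) and ZNF486 (0.974). Among the nearest genes of TET2 were SAMD5 (0.970) and ATP10D (0.964), and DNMT1 was nearest to SRPK1 (0.915), POLD3 (0.912) and EIF1AX (0.910). TET3 had the least close neighbours, THEM4 (0.889), CXCL5 (0.882) and PF4 (0.858). Among the members, DNMT3A and DNMT3B had r = 0.962, DNMT3A and TET1 0.936, DNMT3B and TET1 0.935, and DNMT3B and TET2 -0.902.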

How the data were processed

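The authors captured cells with 10x 3′ chemistry (v2) and made UMI counts per gene and cell with Cell Ranger 2.2 on hg38, which they deposited as raw counts for 22 libraries. Whether the counting used strand is not given in the sources used here. Of 44197 barcodes, 41975 had 1000 genes or more and a mitochondrial share no higher than 10%, and only these were used. No doublets were removed. Removal of the deepest 5% of cells was tried after seeing the data, as was the use of only the larger or only the smaller library of each pool.

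Libraries were summed to 16 pools (33181614 UMIs or more each), and all pools entered 1 fit of edgeR 4.0.16 (R 4.3.3, TMM scaling, quasi-likelihood test) over the 12794 genes with a UMI in at least 5% of cells. A gene was called where its p, adjusted after Benjamini-Hochberg, was under 0.01 and its log2 change beyond 0.25 in size. POU5F1 classes of D7 to D15 and MKI67 classes of all days were set on cells thinned to 5000 UMIs and summed per pool, with the pool as a block. Fold changes at low counts depend on the prior count of the fit. Alternatives included DESeq2 1.42.0, its size factors, no gene filter, stricter cell filters, other class rules and leaving out each pool. The fits were tested on simulated data. Python 3.11.15, numpy 2.4.6, pandas 2.3.3, scipy 1.17.1 and matplotlib 3.10.9 made the tables and plots.

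Named among the partner genes were the 3 with the largest called change in each direction, and as nearest genes the 3 with the highest Pearson r. UHRF1, IDH1 and CXXC4 were named outside this rule, after their values were seen. For TET2, 1 of its nearest genes is not reported here. The members and lists were chosen with earlier results of these data known. Start windows came from RefSeq and gene positions from GENCODE 44.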

Additional observations from a re-analysis of the deposited data

How the results depend on the processing

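Single members were followed in the comparisons of D0 with D15, of the early with the late days and of the mean class differences, and elsewhere where their adjusted p was below 0.05, which leaves out the POU5F1 classes of D7. Of their values under the alternatives 889 kept their direction and their side of the threshold, 76 passed where they had not, 73 no longer passed and 4 changed sign, none of the 4 called. Those 4 were the log2 change of DNMT1 from the early to the late days (-0.181 to 0.0276 with 1 pool left out, above 0 without pool B of D3) and the difference of DNMT3A between MKI67 classes (-0.0296 to 0.0078, above 0 without pool B of D0, pool A of D9 or pool A of D11). Counts of called members, out of 6, that changed by more than 1.5 times were as follows, and the causes were not tested. Where no share of all genes called in the same fit is given, a count cannot be set against one. It is then no result about the members in particular. With DESeq2 the count was 2 from D7 to D9, 2 from D11 to D13 and 1 from D13 to D15. For the POU5F1 classes of D7, D9, D11 and D15 it was 2, 3, 5 and 5. From D9 to D15 it was 3 in positive and 1 in negative cells. DESeq2 called 3.70% and 5.11% of all genes from D11 to D13 and from D13 to D15, and 3.00% and 16.8% for the classes of D7 and D9. From D9 to D15 it called 24.4% and 16.7% in positive and negative cells. Without the gene filter, which adds DNMT3L, the count was 3 from D7 to D9 (6.50% of the 29281 genes were called). It was 4, 6 and 5 for the classes of D9 (4.83%), D11 (19.4%) and D15. From D9 to D15 it was 2 in positive (12.4%) and 1 in negative cells. No share is given for the D15 classes and the negative cells. With only the pools of the days compared the count was 0 from D0 to D3 and 2 from D7 to D9. With the larger or the smaller library of each pool it was 0 from D0 to D3, and with the smaller 0 from D9 to D11. No share of all genes is given for these fits. The looser rule of an adjusted p under 0.05 at any fold gave 2 from D0 to D3, 2 from D7 to D9, 2 from D11 to D13 and 1 from D13 to D15. It gave 5, 6 and 5 for the classes of D9, D11 and D15, and 3 and 1 from D9 to D15 in positive and negative cells. Of all 12794 genes it passed 2475 up and 2682 down, 925 and 883, 161 and 158, and 124 and 399 in those 4 intervals. For these classes it passed 1309 and 1847, 3753 and 4159, and 3458 and 3119. From D9 to D15 it passed 2029 and 1958 in positive and 1609 and 1529 in negative cells. Among other class rules, at least 2 POU5F1 UMIs gave 1 on D9, 5 on D11 and 2 from D9 to D15 in positive cells, negative cells without any POU5F1 UMI gave 3 on D7 and 4 on D9, the class by the unthinned cell gave 2 on D7 and 4 on D9, sums of thinned counts gave 2 on D9 and 2 from D9 to D15 in positive cells, libraries as units gave 4 on D9, 5 on D11 and 2 and 1 from D9 to D15 in positive and negative cells, and cells without MKI67 gave 0 on D11. No share of all genes is given for the counts under these class rules, so they are no result about the members in particular. The rules by the unthinned cell and by no POU5F1 UMI could be run on D7 and D9 only. There DNMT1 (0.23 and 0.27) was not called, nor TET2 by the rule of the unthinned cell (-0.44). Leaving out 1 pool at a time gave counts of 0 to 1 from D0 to D3, D5 to D7, D9 to D11 and D13 to D15, 5 to 6 from D0 to D15, 0 to 4 on D9, 0 to 6 on D11, 0 to 5 on D13 and D15, 5 to 6 for the mean over days, and 0 from D9 to D15 in positive cells. A lone pool of a day is then assumed to vary like those of the other days. The replicate block by pool letter changed no count between days (6 from D0 to D15, 4 from the early to the late days), and the letters were not taken to pair pools, since the deviations of same-lettered pools correlated at -0.41 to 0.81 over 28 pairs of days (median -0.027, 10 pairs over 0.1). The classes without the replicate block gave 2 on D11, 1 on D13, 1 on D15 and 6 for the mean over days, and no share of all genes is given for that fit. Depth limits the low values: as few as 28 UMIs of DNMT3B, 29 of TET2, 52 of TET3 and 0 of DNMT3L were counted in a pool.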
